A study of Mus musculus with 60 samples.

Results

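The 9 chemokine receptor genes Ccr1, Ccr2, Ccr3, Ccr6, Ccr7, Ccr9, Cxcr3, Cxcr4 and Cxcr5 were matched by symbol and by Ensembl identifier, and they are 9 of the 49315 genes counted in mouse whole blood. Blood was taken from 60 male CD2F1 mice in 10 groups of 6. The mice were 5 to 6 weeks old when purchased and older when bled. The mice received BIO 300, an oral powder of synthetic genistein, or its vehicle, by gavage for 6 days with 2 doses a day given 12 h apart. Genistein is a soy isoflavone that binds oestrogen receptors, with a preference for the beta form, and BIO 300 is developed against radiation injury. On Day 0, which was 24 h after the last dose, 4 groups were bled, namely vehicle and 50, 100 and 200 mg/kg. On Day 1, which was 48 h after the last dose, the same 4 treatments were bled in other mice. The last 2 groups had received vehicle or 200 mg/kg, were exposed to 9.2 Gy of cobalt-60 gamma rays over the whole body (total body irradiation, TBI) on Day 0, and were bled on Day 1, which was 24 h after TBI. No irradiated mouse was bled on Day 0, none received 50 or 100 mg/kg, and no female mice were studied. The mg/kg values come from the study's methods, since the sample labels give only a low, a medium and a high dose. Each mouse gave 1 terminal sample, so no animal was followed over time.

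Chemokines are small secreted proteins that guide leukocytes, and their receptors are seven-helix membrane proteins that signal through inhibitory G proteins to turn a chemokine gradient into directed movement. The receptor a cell carries decides where it goes. Ccr7 (receptor of CCL19 and CCL21) and Cxcr5 (receptor of CXCL13) bring T cells and B cells to their zones of the lymph node, Ccr6 (receptor of CCL20) is found on B cells and some T cells, and Ccr9 (receptor of CCL25) directs T cells to the small intestine and thymus. Cxcr3 (receptor of CXCL9, CXCL10 and CXCL11) marks activated T cells and natural killer (NK) cells, and Cxcr4 (receptor of CXCL12) is carried by nearly all leukocytes and holds immature cells in the bone marrow. Among myeloid cells, Ccr2 (receptor of CCL2) brings inflammatory monocytes out of the marrow, Ccr1 (receptor of CCL3 and CCL5) is carried by neutrophils and monocytes, and Ccr3 (receptor of eotaxin, CCL11) marks eosinophils. Lymphocytes are among the most radiation-sensitive cells of the body, whereas mature neutrophils are resistant.

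In GRCm38, 4 of the 9 genes lie in 1 receptor cluster of 435 kb on chromosome 9, from Ccr9 (123678439 to 123784330, + strand) through Ccr1 (123962124 to 123968692, - strand) and Ccr3 (124021972 to 124031689, + strand) to Ccr2 (124101950 to 124113557, + strand). Ccr1 and Ccr3 are 53.3 kb apart, and Ccr3 and Ccr2 are 70.3 kb apart. Cxcr5 (44511787 to 44561877, - strand) lies elsewhere on chromosome 9, Ccr6 (8236043 to 8257141, + strand) on chromosome 17, Ccr7 (99144196 to 99155077, - strand) on chromosome 11, Cxcr4 (128588199 to 128592293, - strand) on chromosome 1 and Cxcr3 (101731535 to 101734269, - strand) on chromosome X. All 9 are protein-coding. Of the 9, Ccr9 overlaps 6 annotated genes, Slc6a20a and Lztfl1 on the other strand among them, and Cxcr5 overlaps the end of Bcl9l on the other strand. Whether the counting used strand is not given in the sources used here, so reads of these 2 genes may include reads of their partners.

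The upstream sequences of 4 genes are shown because the neighbours Ccr1, Ccr3 and Ccr2 had different changes after irradiation (Ccr1 called higher, Ccr2 lower, Ccr3 not called), and because Ccr6 had the largest change of the 9. Each is the 250 bases before the RefSeq start in GRCm38.p6, 5′ to 3′ on the strand of the gene, with letters in capitals where 1 of 6 searched motifs matched. RefSeq windows were found for 7 of the 9 genes, not for Ccr7 or Cxcr5. Most of the Ccr2 window lies inside the GENCODE gene, which starts at 124101950, so it is upstream of the RefSeq start only. The coordinates are chr9:123968693-123968942 (- strand) for Ccr1, chr9:124021721-124021970 (+ strand) for Ccr3, chr9:124101933-124102182 (+ strand) for Ccr2 and chr17:8235793-8236042 (+ strand) for the first of the 2 starts of Ccr6.
Ccr1: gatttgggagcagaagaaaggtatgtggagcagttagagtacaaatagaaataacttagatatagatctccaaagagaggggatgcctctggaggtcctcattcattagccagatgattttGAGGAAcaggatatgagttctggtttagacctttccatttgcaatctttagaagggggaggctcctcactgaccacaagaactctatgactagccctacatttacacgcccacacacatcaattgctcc
Ccr3: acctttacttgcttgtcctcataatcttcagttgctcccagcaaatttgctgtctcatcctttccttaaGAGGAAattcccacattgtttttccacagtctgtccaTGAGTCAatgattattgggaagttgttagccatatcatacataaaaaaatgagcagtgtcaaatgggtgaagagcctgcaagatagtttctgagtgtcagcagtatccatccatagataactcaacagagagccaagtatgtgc
Ccr2: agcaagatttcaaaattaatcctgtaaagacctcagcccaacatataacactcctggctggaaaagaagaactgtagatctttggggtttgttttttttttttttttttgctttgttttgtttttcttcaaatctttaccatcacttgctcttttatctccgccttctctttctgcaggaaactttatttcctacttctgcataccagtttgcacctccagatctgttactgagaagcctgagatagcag
Ccr6: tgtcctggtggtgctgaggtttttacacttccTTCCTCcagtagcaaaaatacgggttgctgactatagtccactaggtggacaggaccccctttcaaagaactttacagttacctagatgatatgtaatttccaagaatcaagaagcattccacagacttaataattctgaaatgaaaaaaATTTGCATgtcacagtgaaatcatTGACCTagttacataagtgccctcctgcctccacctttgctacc

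The motifs were the TATA box (TATAAA), the GC box (GGGCGG), the octamer of Oct factors (ATGCAAAT), a core of PU.1 sites (GAGGAA), the AP-1 site (TGANTCA) and a half-site of oestrogen receptors (AGGTCA), each searched on both strands. The Ccr1 window held GAGGAA at -129 to -124 from the start, and the Ccr3 window held GAGGAA at -181 to -176 and TGAGTCA at -144 to -138. None of the 6 was found in the Ccr2 window, most of which lies inside the annotated gene. In the Ccr6 window shown, the octamer lay at -68 to -61 on the other strand, with TTCCTC at -218 to -213 and TGACCT at -44 to -39. The window of the second Ccr6 start (chr17:8242276-8242525, + strand) held none of the 6. Across the 32851 RefSeq windows of this length, GAGGAA was present in 23.3%, TGANTCA in 6.75%, AGGTCA in 14% and the octamer in 1.6%. The windows of Ccr1, Ccr3, Ccr2 and Ccr6 held 43.6%, 40.4%, 37.2% and 41.2% G and C, below the median of 52.4% over all windows. The Cxcr4 window, at 61.2%, held a TATA box (present in 12.4% of windows) and 3 GC boxes (present in 32.7%). These matches describe letters only, and no binding was measured.

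The libraries held 15099415 to 45589415 counted reads, with a median of 24877993.5. Red cell, B cell, T cell, NK cell, monocyte, neutrophil and platelet marker lists were all detected in every group, which fits the label of whole blood. Albumin (Alb), a liver transcript, was above 100 CPM (read counts scaled to a common library size) in 11 of the 60 libraries, 3 of them from irradiated mice. Every test of a fold change was repeated without these 11, but the tests of receptors against marker lists were not. Haemoglobin genes took a median of 15.9% and 16.9% of counts in the Day 1 groups of 100 and 200 mg/kg against 9.76% in vehicle Day 1, and scaling factors from the trimmed mean of M values (TMM), which correct library size for composition, were 0.485 to 0.68 and 0.415 to 0.646 there against 1.15 to 1.63. Fewer genes were detected in those 2 groups, 18337 to 20941 and 17162 to 19361 against 24167 to 25243. The 9 receptor genes together received 1789 to 5348 and 1204 to 7446 reads per mouse there, against 17693 to 26305 in vehicle Day 1, so their levels there rest on fewer reads. No list gene of any cell type was at 0 throughout a group.

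In vehicle mice on Day 1 the receptor genes spanned a wide range of levels. Per kilobase of exon, which allows genes to be compared, Cxcr4 was highest at a median of 88.7 CPM per kb and Ccr7 followed at 51.6, and the ranges of these 2 overlapped. Cxcr5 (22.7), Ccr2 (22.3) and Ccr1 (21.6) came next with overlapping neighbours, followed by Ccr3 (7.60) and Ccr6 (6.92), which overlapped each other. Cxcr3 (2.10) and Ccr9 (0.994 CPM per kb) were lowest, and their ranges overlapped neither each other nor those of Ccr6. The annotated exons of Ccr9 and Ccr2 sum to 10260 and 6760 bases over several transcripts, so their values per kb would be higher for a shorter transcript. After TBI the order in vehicle mice changed. Ccr1 (155 CPM per kb) and Cxcr4 (99.4) were then highest, with overlapping ranges, and Ccr6, at 0.0779, was lowest.

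**Figure D1:**
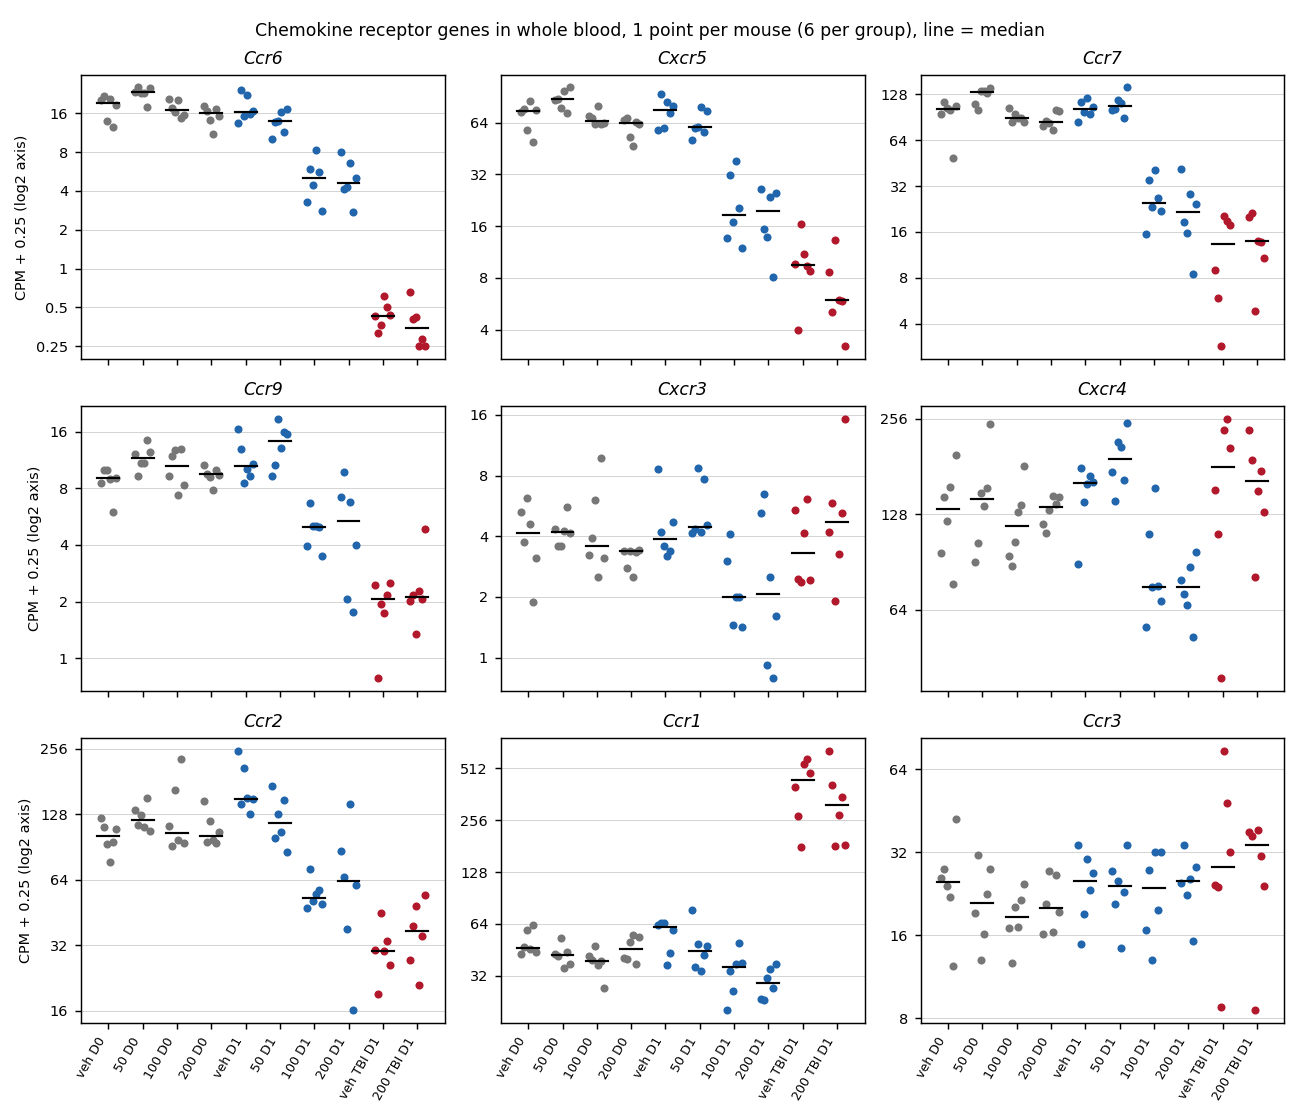
Level of each receptor gene in all 60 mice, as CPM + 0.25 on a log2 axis, with 1 point per mouse, a line at the median of each group of 6, and Day 0, Day 1 and irradiated groups in grey, blue and red. The medians of Ccr6, Cxcr5, Ccr7, Ccr9 and Ccr2 are lower on Day 1 after 100 and 200 mg/kg and lower again after TBI. Only for Ccr6 do all irradiated mice lie below all mice of these dose groups. After TBI, Ccr6 is near the floor with medians of 0.181 and 0.0956 CPM, while Ccr1 is highest at medians of 439 and 312 CPM.

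The comparison of irradiated with unirradiated vehicle mice on Day 1 asked what TBI did to the blood transcriptome after 24 h. With edgeR's quasi-likelihood test, a gene was called when its Benjamini-Hochberg adjusted p over all genes was under 0.05 and its log2 fold change exceeded 1 in size. Of 25146 genes tested, 19.6% were called higher and 16.4% lower. Of the 9 receptor genes, 1 was called higher (Ccr1) and 5 lower (Ccr6, Cxcr5, Ccr7, Ccr9 and Ccr2), and for these 6 the ranges of the 2 groups did not overlap. The share of all genes without overlap is not given here, so a lack of overlap describes these genes only. The median log2 fold change was -2.53 over the 9 genes and 0.09 over all genes. In whole blood, fewer cells of a type and less RNA per cell cannot be told apart.

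The receptors of B cells fell. Ccr6 was at 13.2 CPM in the lowest, 16.1 in the median and 24.1 in the highest vehicle Day 1 mouse, and at 0.0668, 0.181 and 0.3597 CPM in the irradiated mice. In reads, this was 461 to 980 per mouse against 1 to 9, and no irradiated mouse came near the lowest unirradiated one. Its log2 fold change was -6.51 ± 0.37 (SE; 91.1-fold lower; adjusted p = 7.28e-07). Cxcr5 went from 57.9, 75.8 and 92.9 CPM to 3.74, 9.27 and 16.2 CPM, again without overlap, a log2 fold change of -2.98 ± 0.29 (7.88-fold lower; adjusted p = 1.03e-05). All 8 B cell genes of the marker list, Ms4a1 and Cd79a among them, were called lower, with a median log2 fold change of -3.49. Ccr6 thus lay below the list and Cxcr5 above it, a difference tested further down.

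The homing receptors of T cells fell as well, and Cxcr3 did not pass the test. Ccr7 was at 83.7, 102 and 120.5 CPM (lowest, median, highest) in vehicle Day 1 mice and at 2.59, 13.1 and 19.95 CPM after TBI. The irradiated mice spread over a wide range but stayed below every unirradiated one (log2 fold change -3.09 ± 0.44; 8.52-fold lower; adjusted p = 0.000132). Ccr9 was at 8.27, 10.2 and 16.3 CPM against 0.534, 1.81 and 2.26 CPM, also without overlap (log2 fold change -2.74 ± 0.31; 6.69-fold lower; adjusted p = 3.20e-05). Cxcr3, the receptor of activated cells, was at 2.93, 3.63 and 8.38 CPM against 2.11, 3.04 and 5.90 CPM, and these ranges overlapped for most mice (log2 fold change -0.30 ± 0.35; adjusted p = 0.492). All 8 T cell genes of the list were called lower (median -2.27), and so were 6 of 8 NK cell genes (median -1.17).

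Cxcr4, carried by most leukocytes, was at 88.6, 160.4 and 179 CPM in vehicle Day 1 mice and at 38.7, 179.8 and 255 CPM after TBI. The irradiated mice lay on both sides of the unirradiated ones (log2 fold change 0.14 ± 0.37; adjusted p = 0.776). Mouse 51, the lowest of the irradiated vehicle mice for Cxcr4, Ccr1, Ccr3 and Ccr7, had the highest albumin level of all 60 libraries (16050 CPM).

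The 3 myeloid receptors went different ways. Ccr2, which inflammatory monocytes carry, was at 128, 151 and 250.1 CPM in vehicle Day 1 mice and at 18.8, 29.97 and 44.6 CPM after TBI. Every irradiated mouse was below every unirradiated one (log2 fold change -2.53 ± 0.23; 5.78-fold lower; adjusted p = 7.44e-06), while only 1 of the 8 monocyte list genes was called lower and 2 higher (list median 0.20). Ccr1, which neutrophils carry, was at 36.6, 61.04 and 64.4 CPM against 179.5, 439 and 582 CPM, and all 6 irradiated mice exceeded all 6 others (log2 fold change 2.87 ± 0.30; 7.31-fold higher; adjusted p = 1.94e-05). All 8 neutrophil genes of the list, S100a8 and Csf3r among them, were called higher (median 2.66). Ccr3, the eosinophil receptor, was at 14.7, 24.9 and 33.8 CPM against 8.53, 28.0 and 74.5 CPM. Its irradiated values spread on both sides of the others (log2 fold change 0.51 ± 0.41; adjusted p = 0.324), and 2 of 6 eosinophil list genes were called higher (median 0.24).

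Of the other lists in this comparison, 5 of 8 basophil genes were called lower and 2 higher, all 5 plasmacytoid dendritic cell genes lower, all 7 platelet genes higher, 2 of 8 pan-leukocyte genes higher, none of the 4 haemoglobin genes, and 1 of 8 liver genes higher. Against vehicle mice of Day 0, 15.1% of 24751 genes were called higher and 11.8% lower. The receptor calls were again Ccr1 higher (log2 fold change 3.14 ± 0.32) and Ccr6 (-6.38 ± 0.39), Ccr7 (-2.84 ± 0.48), Cxcr5 (-2.79 ± 0.27), Ccr9 (-2.25 ± 0.30) and Ccr2 (-1.67 ± 0.18) lower, each without overlap. Ccr3 (0.59 ± 0.45), Cxcr4 (0.46 ± 0.41) and Cxcr3 (-0.02 ± 0.37) were not called. Both comparisons use the same irradiated mice. The fold of Ccr2 was 3.19 here and 5.78 against Day 1, and its median in vehicle mice was 102 CPM on Day 0 and 151 CPM on Day 1. Without the libraries high in albumin, these 6 genes were called in both comparisons.

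**Figure D2:**
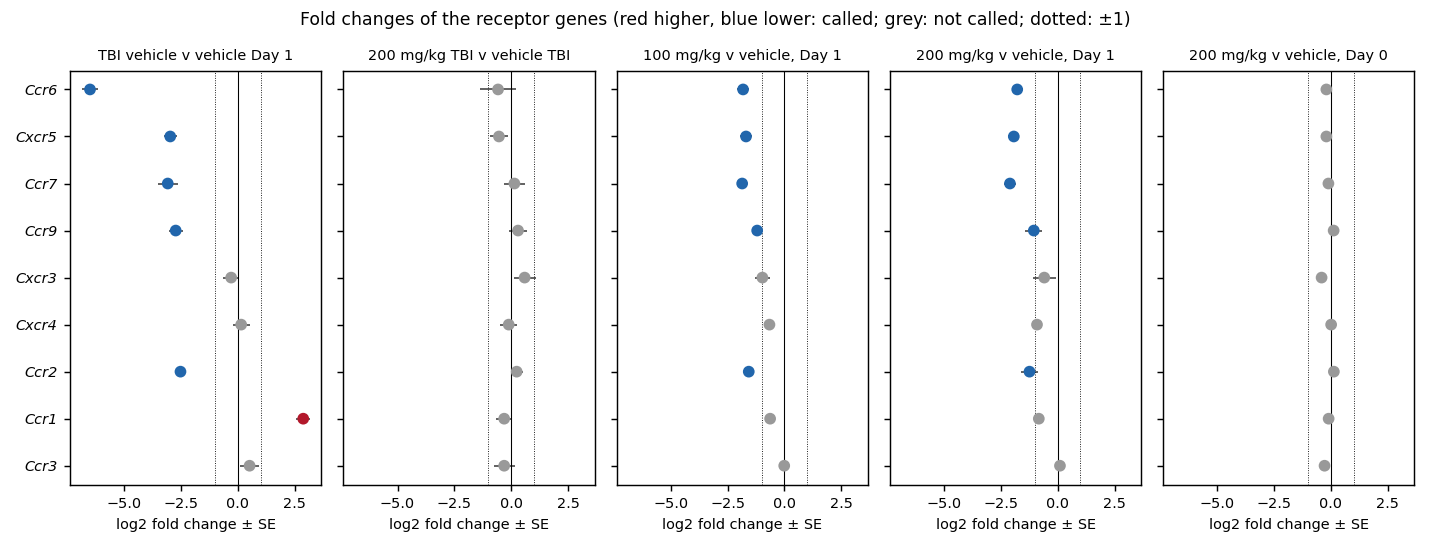
Log2 fold change with its SE for each receptor gene in 5 comparisons of 6 against 6 mice, called genes in red (higher) or blue (lower), others in grey, dotted lines at 1 and -1. Irradiated against unirradiated vehicle mice shows 5 genes lower and Ccr1 higher, 200 mg/kg against vehicle within irradiated mice shows none called, and on Day 1 without TBI 5 genes are lower at 100 and at 200 mg/kg but none at 200 mg/kg on Day 0.

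Whether BIO 300 changed the irradiated blood was asked by comparing irradiated 200 mg/kg mice with irradiated vehicle mice. With edgeR 0% of 24916 genes were called higher and 0% lower, 688 had an unadjusted p under 0.05, and DESeq2 called 0 too. None of the 9 receptor genes had an unadjusted p under 0.05. Ccr6 was at 0, 0.0956 and 0.408 CPM in the treated mice, with 0 reads in mice 58 and 60. Counts of 0 there allow up to 0.1442 and 0.1432 CPM, so Ccr6 could not be compared well at this depth (log2 fold change -0.58 ± 0.79). Ccr1 was at 181, 312 and 647 CPM and Cxcr4 at 80.7, 163 and 235.5 CPM, within or close to the ranges of the irradiated vehicle mice. The log2 fold changes of the other 8 genes lay between -0.54 (Cxcr5, SE 0.39) and 0.59 (Cxcr3, SE 0.48) with SEs of 0.26 to 0.48 over the 8, so differences of that size could not be told from 0. Between these 2 lay Ccr1 (-0.31), Ccr3 (-0.31), Cxcr4 (-0.11), Ccr7 (0.14), Ccr2 (0.24) and Ccr9 (0.30). Mouse 60 was highest for Cxcr3 (14.99 CPM) and Ccr9 (4.58 CPM).

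Within the 200 mg/kg dose, irradiated mice were set against unirradiated mice of Day 1, where 14.9% of 23610 genes were called higher and 5.73% lower. Among the receptor genes, 2 were called higher and 2 lower. Ccr1 went from 22.9, 28.9 and 37.3 CPM to the 181, 312 and 647 CPM given above, without overlap (log2 fold change 3.48 ± 0.33; 11.2-fold higher; adjusted p = 3.10e-05). Ccr6 went from 2.49, 4.40 and 7.71 CPM to values below 1 CPM (log2 fold change -5.19 ± 0.77; adjusted p = 0.000379), again without overlap. Cxcr5 was lower (log2 fold change -1.49 ± 0.36; adjusted p = 0.00803) and Cxcr4 higher (1.03 ± 0.23; adjusted p = 0.00529), both with overlap. The call for Cxcr4 did not hold without mouse 55 (0.88) or mouse 56 (0.97).

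The other receptors did not pass there in the test used throughout. Ccr9 had a log2 fold change of -1.24 ± 0.46 (adjusted p = 0.0612), Ccr2 of -0.91 ± 0.40 (adjusted p = 0.104), Ccr7 of -0.74 ± 0.38 (adjusted p = 0.162) and Cxcr3 of 1.04 ± 0.63 (adjusted p = 0.227), while Ccr3 was at 0.18 ± 0.31. Ccr9 was called without mouse 47 or mouse 60, with DESeq2 (-1.19), with edgeR's own filter (-1.24) and with pan-leukocyte genes as library size (-1.69). Ccr2 was called without mouse 47, Ccr7 with pan-leukocyte genes as library size (-1.30), and Cxcr3 without the libraries high in albumin (1.45). In the lists, 7 of 8 B cell genes were called lower and 7 of 8 neutrophil genes higher, and none of the T cell genes. Whether TBI acted differently at this dose is the same contrast as the test of the drug effect across TBI, given further down.

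On Day 1 without TBI, the comparison of each dose with vehicle asked what 6 days of BIO 300 left in the blood 48 h after the last dose. All 3 dose comparisons, and the TBI comparison above, use the same 6 vehicle mice, so they are given side by side. At 50 mg/kg edgeR called 0% of 24118 genes higher and 0% lower, although 4458 had an unadjusted p under 0.05 and DESeq2 called 27 higher and 12 lower. No receptor gene was called by either tool. Of the 9, Ccr2 (-0.47 ± 0.19), Ccr6 (-0.38 ± 0.16) and Cxcr4 (0.37 ± 0.17) had an unadjusted p under 0.05, and no adjusted p was below 0.217. The other 6 were at -0.23 (Cxcr5), -0.21 (Ccr1), -0.02 (Ccr3), 0.12 (Ccr7), 0.30 (Ccr9) and 0.32 (Cxcr3).

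With 100 mg/kg, 18.2% of 23699 genes passed as higher and 30.6% as lower. With 200 mg/kg, these shares were 17.3% and 30.5% of 23513. The same 5 receptor genes, Ccr6, Cxcr5, Ccr7, Ccr9 and Ccr2, were called lower at both doses and none higher. The 2 groups did not overlap for any of these 5 after 100 mg/kg, and after 200 mg/kg they did not for Ccr6, Cxcr5 and Ccr7. How common this was among all genes is not given here. Over the 9 receptors the log2 fold changes had medians of -1.20 and -1.05, beside -0.38 and -0.48 over all genes.

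Ccr7 fell most at 200 mg/kg. It was at 15.3, 24.7 and 40.7 CPM (lowest, median, highest) at 100 mg/kg and at 8.24, 21.3 and 41.1 CPM at 200 mg/kg, where the lowest vehicle mouse was at 83.7 CPM. Its log2 fold change was -1.86 ± 0.21 (3.63-fold lower; adjusted p = 3.95e-06) and -2.10 ± 0.28 (4.29-fold lower; adjusted p = 1.67e-05). Cxcr5 was at 11.7, 18.3 and 38.0 CPM and at 7.80, 19.3 and 25.96 CPM, below the 57.9 CPM of the lowest vehicle mouse, with log2 fold changes of -1.69 ± 0.28 (adjusted p = 0.000123) and -1.93 ± 0.25 (adjusted p = 1.27e-05). Ccr6, at 2.53, 4.77 and 8.03 CPM and at 2.49, 4.40 and 7.71 CPM, fell by similar amounts, -1.82 ± 0.27 (adjusted p = 4.11e-05) and -1.78 ± 0.24 (adjusted p = 2.07e-05). At each dose the 6 treated mice of these 3 genes lay below all 6 vehicle mice. All 8 B cell genes were called lower at both doses (medians -1.5 and -1.73), as were 8 and 7 of the 8 T cell genes (medians -1.40 and -1.36), while none of the 8 NK cell genes was called by edgeR (medians -0.60 and 0.08).

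Ccr2 and Ccr9 fell with more spread at the higher dose. Ccr2 was at 47.1, 52.8 and 71.3 CPM at 100 mg/kg (log2 fold change -1.57 ± 0.17; adjusted p = 2.48e-06) and at 15.9, 62.96 and 142.9 CPM at 200 mg/kg (-1.24 ± 0.38; adjusted p = 0.0101). The 200 mg/kg mice ranged from mouse 47, the lowest of all groups, to mouse 46, which lay within the vehicle range. Ccr9 was at 3.25, 4.75 and 6.40 CPM (-1.20 ± 0.20; adjusted p = 0.000129) and at 1.52, 5.13 and 9.502 CPM (-1.05 ± 0.37; adjusted p = 0.0230). The call for Ccr9 at 200 mg/kg did not hold without mouse 25, 45, 47 or 48, with log2 fold changes of -1.34 to -0.87 when 1 mouse was left out, nor with edgeR's own filter on low counts (-0.95). Of the 8 monocyte genes, 4 were called lower after 100 mg/kg and 3 after the higher dose, and 1 was called higher in each case.

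The remaining 4 receptors were not called. Ccr1 had an adjusted p under the limit but a log2 fold change within 1, at -0.63 ± 0.20 (adjusted p = 0.0140) and -0.83 ± 0.17 (adjusted p = 0.000626). Cxcr4 was likewise at -0.66 ± 0.25 (adjusted p = 0.0296) and -0.91 ± 0.18 (adjusted p = 0.000588), with medians of 75.4 and 75.3 CPM against 160.4 CPM in vehicle mice. Cxcr3 was at -0.97 ± 0.34 (adjusted p = 0.0234) and -0.59 ± 0.51 (adjusted p = 0.325). After the lower dose Cxcr3 was called without any 1 of mice 27, 28, 29, 30, 37 and 38, and at 200 mg/kg Cxcr4 was called without mouse 25 (-1.02). Ccr3 had values of -0.01 ± 0.25 and 0.10 ± 0.21, and its medians of 23.4 and 24.96 CPM lay beside 24.9 CPM in vehicle mice. The neutrophil list, which lacks Ccr1, had 3 and 1 of 8 genes called higher.

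Other cell lists moved in the same 2 groups. All 7 platelet genes were called higher (medians 3.13 and 3.23), as were all 4 haemoglobin genes (2.52 and 2.69), while 2 of 8 pan-leukocyte genes were called higher and 1 lower at each dose. The summed pan-leukocyte level had medians of 2478 and 2498 CPM against 2521 CPM in vehicle mice. Among 8 basophil genes 1 was called higher at each dose, with 2 lower after 100 mg/kg and 3 after 200 mg/kg. Of the 6 eosinophil genes 0 and 1 were called higher, of the 5 plasmacytoid dendritic cell genes 1 was lower at each dose and 1 higher at the lower dose, and no liver gene was called by edgeR. The part of platelet RNA, of haemoglobin RNA and of the low scaling factors in the receptor results was not tested.

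No receptor gene was called at any dose on Day 0. At 50 mg/kg 0.127% of 24485 genes were called higher and 4.38% lower. An unadjusted p under 0.05 was found for 7588 of the genes and for 5 of the receptors, all 5 with positive values, namely Ccr9 (0.44 ± 0.14, adjusted p = 0.0566), Ccr7 (0.41 ± 0.18), Ccr6 (0.37 ± 0.14), Cxcr5 (0.34 ± 0.13) and Ccr2 (0.31 ± 0.12), with medians of 11.3, 131.6, 22.9, 86.9 and 120.5 CPM against 8.77, 101.9, 19.1, 74.8 and 102 CPM. Ccr3 (-0.24), Ccr1 (-0.23), Cxcr3 (0.05) and Cxcr4 (0.16) had larger p. In that comparison 5 of 7 platelet genes and 1 of 4 haemoglobin genes were called lower. After 100 mg/kg edgeR called 0% of 24000 genes higher and 0% lower, with 726 at an unadjusted p under 0.05, and DESeq2 called 2 lower. After 200 mg/kg the edgeR shares were again 0% and 0%, of 23795 genes with 2146 at an unadjusted p under 0.05, and DESeq2 called 2 higher. The receptors lay between -0.43 (Ccr3) and 0.39 (Ccr2) after 100 mg/kg, and Ccr1 (-0.37 ± 0.14) had an unadjusted p under 0.05. The rest there were at -0.09 (Cxcr4), -0.04 (Ccr7), -0.02 (Cxcr5), -0.01 (Ccr6), 0.23 (Cxcr3) and 0.27 (Ccr9). After 200 mg/kg they ran from Cxcr3 (-0.41) over Ccr3 (-0.28), Ccr6 (-0.20), Cxcr5 (-0.20), Ccr7 (-0.11), Ccr1 (-0.10), Cxcr4 (0.01) and Ccr9 (0.12) to Ccr2 (0.13), with 0 unadjusted p under 0.05, and DESeq2 called no receptor at either dose.

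Between the days, vehicle mice of Day 1 against those of Day 0 gave 0% of 24375 genes called higher and 0% lower with edgeR, 3007 with an unadjusted p under 0.05, and 1 higher and 36 lower with DESeq2. No receptor was called by either tool. Ccr2 was at 76.7, 102 and 122 CPM on Day 0 and at 128, 151 and 250.1 CPM on Day 1, with no overlap (log2 fold change 0.76 ± 0.17; adjusted p = 0.204). Ccr9 had 0.38 ± 0.17 (adjusted p = 0.393), and the other 7 genes lay between -0.06 and 0.18, in the order Ccr3, Ccr6, Cxcr5, Ccr7, Ccr1, Cxcr3 and Cxcr4.

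The difference between the days was tested itself, as the drug effect on Day 1 minus that on Day 0. For 100 mg/kg, 15.7% of 25908 genes passed as higher and 26.3% as lower. For 200 mg/kg, the shares were 13.1% and 23.6% of 25702. The 5 receptors called on Day 1 were called lower here too, at both doses. At 100 mg/kg the differences in log2 fold change were -1.96 ± 0.29 for Ccr2, -1.82 ± 0.27 for Ccr7, -1.81 ± 0.30 for Ccr6, -1.67 ± 0.31 for Cxcr5 and -1.47 ± 0.27 for Ccr9, with adjusted p from 7.58e-06 (Ccr2) to 8.96e-05 (Cxcr5). At 200 mg/kg they were -1.99 ± 0.34 for Ccr7, -1.72 ± 0.29 for Cxcr5, -1.57 ± 0.29 for Ccr6, -1.38 ± 0.42 for Ccr2 and -1.18 ± 0.41 for Ccr9, the last (adjusted p = 0.0213) not called without mouse 47 (-1). Ccr3 was at 0.44 ± 0.37 and 0.39 ± 0.33, Ccr1 at -0.26 ± 0.26 and -0.72 ± 0.22, Cxcr4 at -0.57 ± 0.35 and -0.91 ± 0.27, and Cxcr3 at -1.21 ± 0.53 and -0.19 ± 0.61, none of them called.

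The effect of 200 mg/kg in irradiated mice minus that in unirradiated mice on Day 1 was also tested, with 19.5% of 26875 genes called higher and 10% lower. For 4 receptors it was called higher, Ccr7 (2.47 ± 0.57; adjusted p = 0.00231), Ccr2 (1.71 ± 0.50; adjusted p = 0.0109), Cxcr5 (1.61 ± 0.49; adjusted p = 0.0129) and Ccr9 (1.59 ± 0.57; adjusted p = 0.0340). These 4 were lower than vehicle at 200 mg/kg without TBI, and within irradiated mice their values were 0.14, 0.24, -0.54 and 0.30. The call for Ccr9 was lost in 8 of the 24 fits that left out 1 mouse (25, 26, 45, 47, 48, 50, 52 or 60), with values of 1.26 to 1.86. Ccr6 (1.44 ± 0.77; adjusted p = 0.153), Cxcr3 (1.42 ± 0.75; adjusted p = 0.147) and Cxcr4 (1.02 ± 0.43; adjusted p = 0.0678) were not called, and Cxcr4 was called without mouse 53 or mouse 57. Ccr1 (0.74 ± 0.40) and Ccr3 (-0.18 ± 0.51) were not called either. With pan-leukocyte genes as library size, Ccr9 (1.49) and Cxcr5 (1.62) were no longer called and Cxcr4 (1.05) was. Without the libraries high in albumin Cxcr3 was called higher.

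The scaling of libraries changed levels in the Day 1 dose groups. Divided by total counts instead of TMM, the median of all genes went from -0.38 to -1.76 at 100 mg/kg and from -0.48 to -1.96 at 200 mg/kg, and only 6.24% and 4.42% of calls were then higher, against 37.3% and 36.2%. All 9 receptors were called lower at both doses on that scale, from -3.54 (Ccr7) to -1.39 (Ccr3) at 200 mg/kg. Relative to the median of all genes, Ccr7 remained at the bottom and Ccr3 above the median. When the summed counts of 8 pan-leukocyte genes served as library size, the receptors called were the same at 100 mg/kg, and at 200 mg/kg Cxcr4 joined them (-1.01). For TBI against vehicle Day 1, higher calls were 54.4% of all calls with TMM, 35.5% with total counts and 33% with pan-leukocyte genes, and against vehicle Day 0 they were 56%, 49.2% and 23.5%. The same 6 receptors were called in the same direction under each of these in both comparisons. Within 200 mg/kg the share was 72.3%, 97.6% and 46.7%, and in the test of the drug effect across TBI it was 66%, 96% and 59.9%. At 50 mg/kg on Day 0 it was 2.81%, 89.3% and 0.885%, and Ccr6, Ccr7 and Ccr9 were called higher with total counts only. For the tests between days, it was 37.4%, 5.87% and 38.8% at 100 mg/kg and 35.7%, 4.37% and 29.8% at 200 mg/kg.

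**Figure D3:**
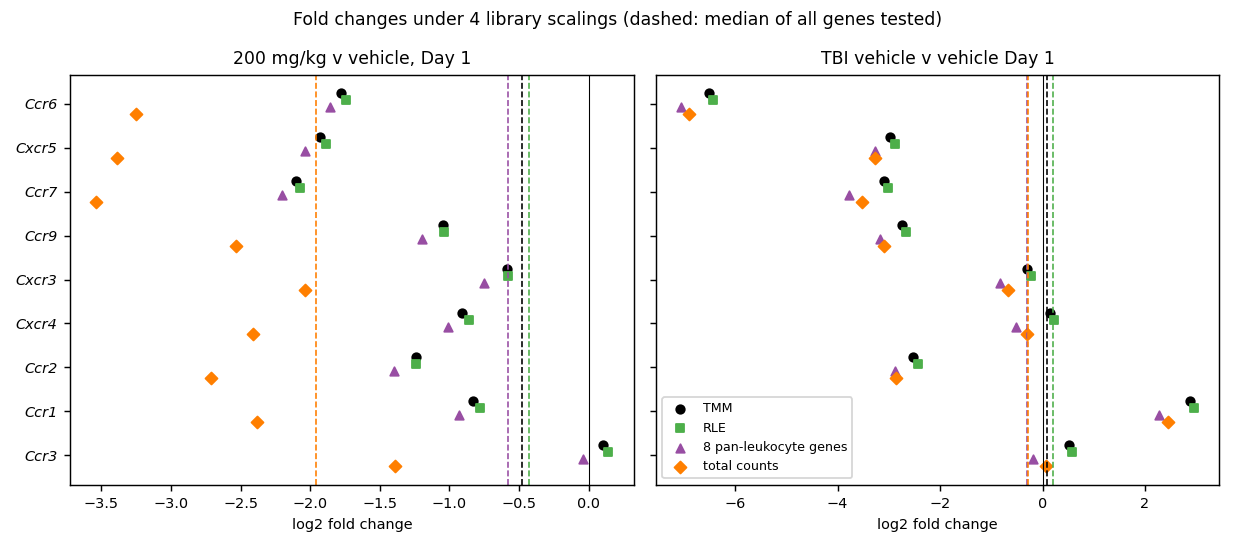
Log2 fold change of each receptor gene under 4 scalings of the libraries, with the median of all genes tested as a dashed line in the colour of the scaling, for 200 mg/kg against vehicle on Day 1 (left) and TBI against vehicle on Day 1 (right). On the left total counts move the genes and the median of all genes together, to -1.96, and on the right Ccr3 runs from -0.19 to 0.58 and Cxcr4 from -0.51 to 0.22 across the scalings, on both sides of 0.

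Reading a receptor against the marker list of the cells that carry it, within the same library, takes most of the scaling out of the comparison. For each mouse, the mean log2(CPM + 0.25) of the list was subtracted from that of the receptor, and groups were compared with a 2-sided exact permutation test. Over 99 such tests (9 genes, 11 comparisons) 25 had an adjusted p under 0.05, 10 higher and 15 lower, and the smallest p that 6 against 6 mice allow is 0.00216. None of the 25 was in a comparison of irradiated 200 mg/kg with irradiated vehicle mice, of a dose on Day 0, of 50 mg/kg on Day 1 or of vehicle mice between days.

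After TBI, Ccr6 and Cxcr5 separated from the B cell genes in opposite directions. Ccr6 minus the list was at -2.90, -2.75 and -2.61 (lowest, median, highest) in vehicle Day 1 mice and at -5.12, -4.60 and -4.07 after TBI, a difference of -1.79 (exact permutation, adjusted p = 0.0126) without overlap. Cxcr5 minus the list rose from a median of -0.70 to -0.19 (difference 0.55, exact permutation, adjusted p = 0.0126). Against vehicle Day 0 the differences were -1.83 and 0.60, and within 200 mg/kg -1.68 and 0.65. Since Ccr6 was close to 0 reads after TBI, its value depends on the added 0.25 CPM and understates its fall, and with 1 CPM the difference within 200 mg/kg was -0.37 and not called. At 100 and 200 mg/kg without TBI no difference from the list was called (Ccr6 -0.25 and 0.03, Cxcr5 -0.22 and -0.20).

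The T cell receptors also differed from their list. Ccr7 minus the T cell list fell from a median of 1.23 to 0.25 after TBI (difference -1.03, exact permutation, adjusted p = 0.0126) with no overlap. It was also lower at 100 mg/kg (-0.37, exact permutation, adjusted p = 0.028, lost without mouse 26, 27, 37 or 42) and at 200 mg/kg (-0.69, exact permutation, adjusted p = 0.0126). After TBI within 200 mg/kg its difference of -0.42 (exact permutation, adjusted p = 0.331) was not called. Cxcr3 minus the list rose after TBI from -3.94, -3.55 and -2.35 to -2.38, -1.19 and -0.68 (difference 2.03, exact permutation, adjusted p = 0.0214), with overlap only through mouse 25 of the vehicle mice, and rose by 1.41 within 200 mg/kg. NK cells carry Cxcr3 as well, and it was not tested against the NK cell list. Ccr9 minus the T cell list had a difference of -0.29 after TBI in vehicle mice (exact permutation, adjusted p = 0.554). Within 200 mg/kg its difference of -0.70 (exact permutation, adjusted p = 0.0429) was lost in 9 of 12 tests that left out 1 mouse and with 1 CPM added (-0.55).

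Among myeloid receptors, Ccr2 minus the monocyte list fell from 1.74, 2.28 and 2.72 to -0.59, -0.25 and 0.57 after TBI (difference -2.31, exact permutation, adjusted p = 0.0126), so it fell further than the mean of the list. At 100 and 200 mg/kg it was lower by -0.95 (exact permutation, adjusted p = 0.0126) and -0.96 (exact permutation, adjusted p = 0.028). The summed CPM of the monocyte list was higher there, with medians of 1005 and 1284 against 512 in vehicle Day 1 mice. Its genes thus moved unevenly, and the part of single list genes in these differences was not tested. After TBI within 200 mg/kg the difference of -1.02 for Ccr2 (exact permutation, adjusted p = 0.0612) was not called. Ccr1 minus the neutrophil list moved in opposite directions under TBI and drug. It was 0.57 higher after TBI (exact permutation, adjusted p = 0.0214) and 1.56 higher after TBI within 200 mg/kg, but lower by -1.19 and -1.27 at 100 and 200 mg/kg, in the last 3 without overlap. Cxcr4 minus the pan-leukocyte list was lower at 200 mg/kg on Day 1 (-0.64, exact permutation, adjusted p = 0.0357) and higher after TBI within that dose (0.41, exact permutation, adjusted p = 0.0126). Ccr3 minus the eosinophil list was called in no comparison, with differences from -0.32 to 0.03.

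**Figure D4:**
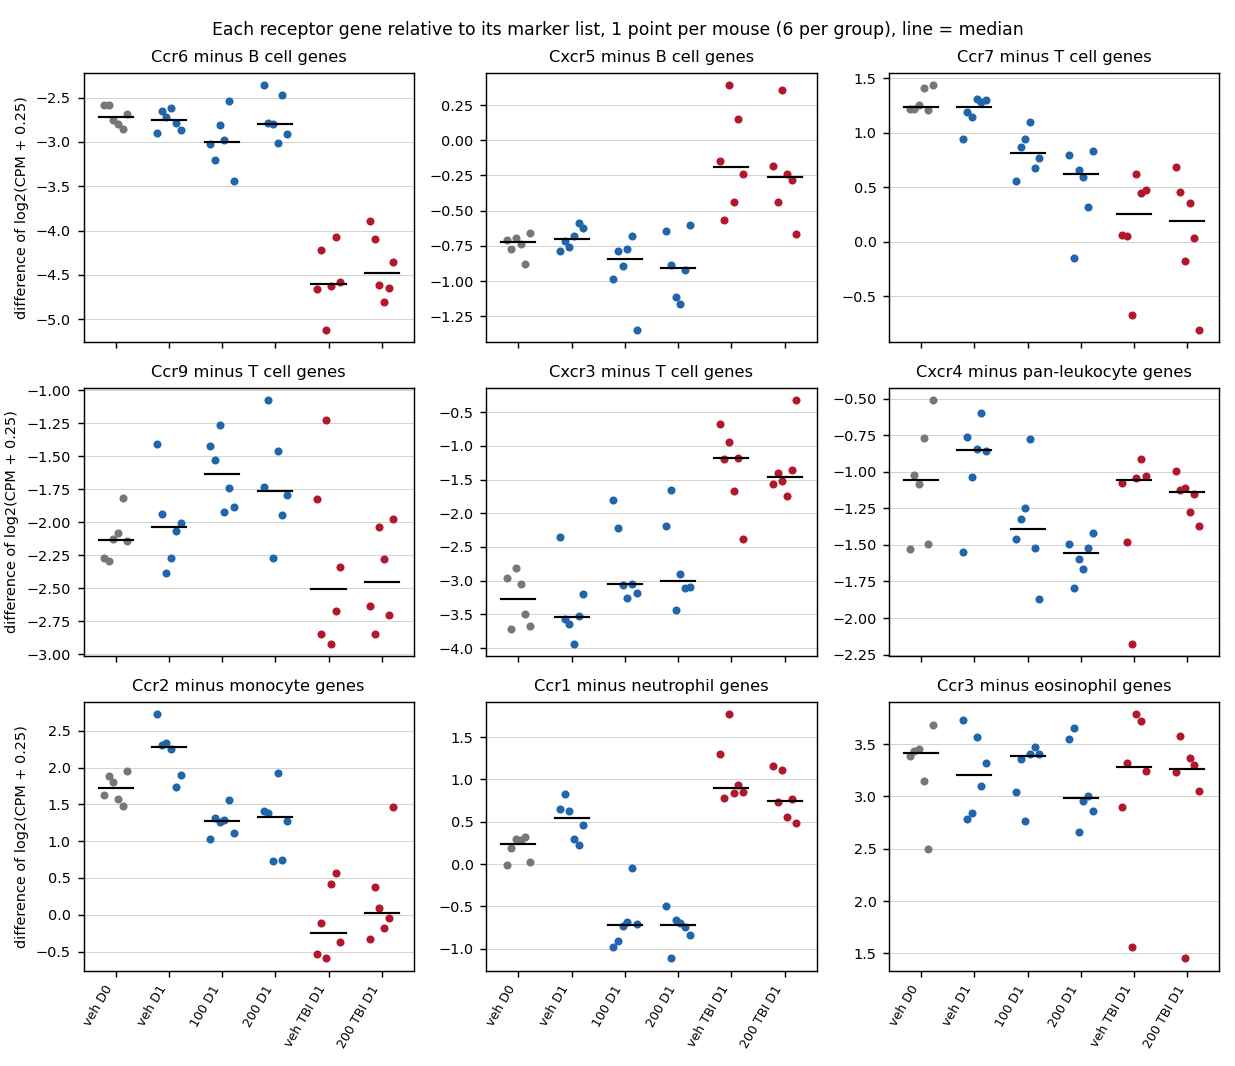
Receptor minus the mean of its marker list on the log2(CPM + 0.25) scale, 1 point per mouse, line at the median of 6, in 6 groups. Ccr6 minus B cell genes lies between -5.12 and -3.90 in all 12 irradiated mice and between -3.44 and -2.36 in the others. Cxcr3 and Cxcr5 rise after TBI, and Ccr2 and Ccr7 fall, though the falls of these last 2 were called in vehicle mice and not within 200 mg/kg. Ccr1 is below 0 in all 12 mice given 100 or 200 mg/kg and bled on Day 1 without TBI.

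The genes whose levels ran closest to each receptor across mice were found by the Pearson r of deviations from the group mean over 60 mice, among 11848 genes. These r are descriptions, since all points share the scaling of their library. Cxcr5 ran with the B cell genes Blk (r = 0.92) and Bank1 (0.91), and Ccr6 with Zbtb1 (0.84), Ttpal and Fcer2a (0.82 for both). Ccr7 ran with Lef1 (0.96) and Tcf7 (0.95), transcription factors of naive T cells, and Btg2 (0.94), Ccr9 with Gimap4 (0.84), Icos and Zap70 (0.83 for both), and Cxcr3 with Podnl1, Il2rb (0.92 for both) and Cxcr6 (0.89). Cxcr4 ran with Tsc22d3 (0.90), Zfp36l2 (0.88) and Stk17b (0.86). Ccr2 ran with Tifab (0.86) and AW112010 (0.85), Ccr1 with Cd33, Kcnj2 (0.92 for both) and Mpzl3 (0.91), and Ccr3 with the granulocyte genes Gapt, Cebpe (0.91 for both) and Retnlg (0.90). Between members, the highest r were 0.82 for Ccr7 with Cxcr4, 0.81 for Ccr9 with Cxcr3 and 0.77 for Ccr6 with Cxcr5, while neighbours on chromosome 9 had 0.03 (Ccr1 with Ccr2), 0.03 (Ccr2 with Ccr3) and 0.42 (Ccr1 with Ccr3). Against its own list, r was 0.91 for Cxcr5 and 0.83 for Ccr6 (B cell), 0.86 for Ccr7, 0.74 for Ccr9 and 0.69 for Cxcr3 (T cell), 0.83 for Ccr1 (neutrophil), 0.77 for Cxcr4 (pan-leukocyte), 0.70 for Ccr2 (monocyte) and 0.56 for Ccr3 (eosinophil). Ccr3 had a higher r with the pan-leukocyte (0.78), neutrophil (0.66), T cell and NK cell (0.62 for both) lists, so it ran less with the eosinophil genes than with those. Likewise, Ccr7 had a slightly higher r with the pan-leukocyte list (0.89) than with the T cell list, and Cxcr3 with the NK cell list (0.70).

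Of the 15 other chemokine receptors in the list, 14 were tested after TBI, where 5 were called higher and 2 lower (median 0.98, beside 0.09 over all genes). Of all genes, 19.6% were called higher and 16.4% lower there. The neutrophil receptors Cxcr2, from 50.7, 78.1 and 101.8 to 188.6, 724.5 and 1036 CPM (log2 fold change 3.13 ± 0.38; adjusted p = 4.62e-05), and Cxcr1 (4.42 ± 0.60) rose along with Ccr1, without overlap. The scavenging receptor Ackr3 rose (2.76 ± 0.71) with overlap, and Ccr4, a receptor of helper T cells, fell (-2.90 ± 0.38). On Day 1 after 100 mg/kg 3 of 14 were called higher and 5 lower, and after 200 mg/kg 3 of 15 higher and 2 lower. The shares over all genes were 18.2% higher and 30.6% lower, and 17.3% and 30.5%, so these counts do not set the other receptors apart. Xcr1, a receptor of cross-presenting dendritic cells, had log2 fold changes of 2.61 ± 0.21 and 2.64 ± 0.17, and Ackr1, a scavenging receptor of red cells and vessel walls, of 2.23 ± 0.18 and 2.36 ± 0.21, in both cases with no overlap. The summed platelet list was higher as well, with medians of 16913 and 22351 CPM against 2405 CPM in vehicle Day 1 mice. No list of cross-presenting dendritic cells was used, and which cells carried the Xcr1 reads was not tested. Ccr4 (-1.92 ± 0.50) was called lower at 100 mg/kg. Ackr2, another scavenger, was called higher at both doses (1.04 ± 0.38 and 1.27 ± 0.37). At 50 mg/kg on Day 0 both genes called were scavenging receptors and lower, Ackr1 (-1.45 ± 0.28) and Ackr3 (-1.80 ± 0.50). Of all genes, 4.38% were called lower in that comparison.

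**Figure D5:**
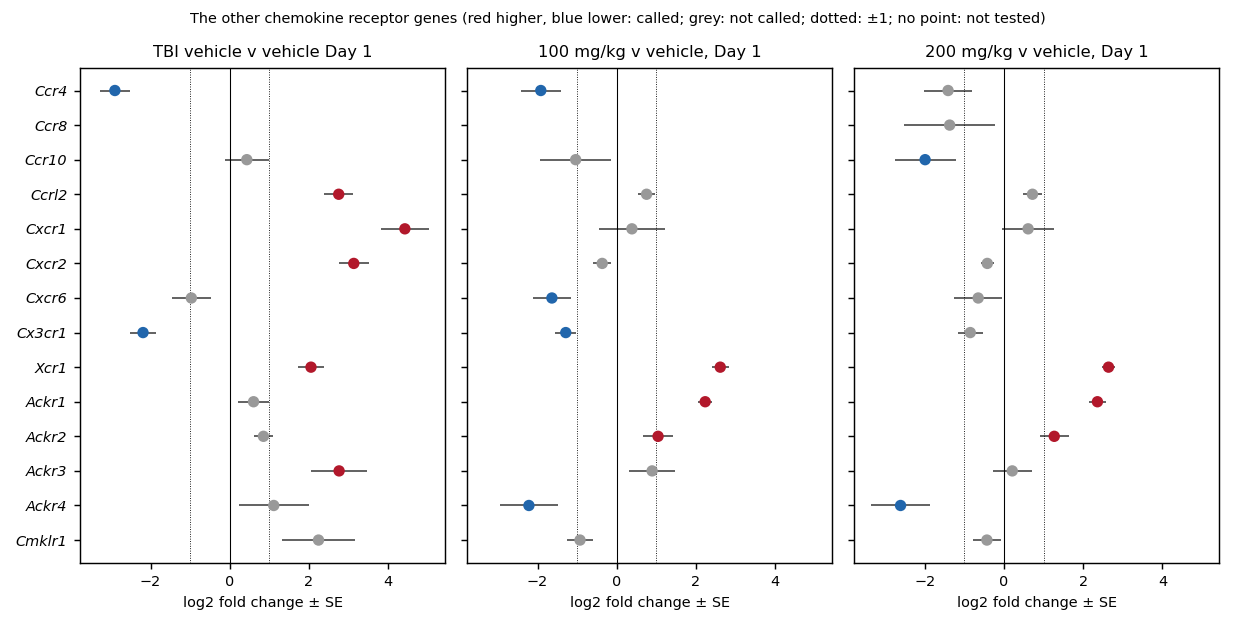
Log2 fold change with its SE of 14 chemokine receptor genes outside the 9, in 3 comparisons with vehicle Day 1, called genes in red (higher) or blue (lower), others grey, genes not tested left blank. Cxcr1, Cxcr2, Ccrl2, Xcr1 and Ackr3 are higher after TBI, and Xcr1, Ackr1 and Ackr2 are higher at both doses of BIO 300.

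Of 30 genes that act in signalling from these receptors to movement, 10 were called higher and 1 lower after TBI (median 0.68). The drug groups had 9 higher at each dose, with 4 lower after 100 mg/kg (median -0.09) and 2 after 200 mg/kg (median -0.00). Over all genes, 19.6% were called higher and 16.4% lower after TBI. At 100 mg/kg these shares were 18.2% and 30.6%, and at 200 mg/kg 17.3% and 30.5%. The largest changes were in Rgs18 (2.38, 2.87 and 2.76), an inhibitor of G protein signals, the integrin activator Fermt3 (2.20, 2.84 and 2.94), the receptor kinase Grk5 (2.03, 2.40 and 2.48) and the Rap1 activator Rasgrp2 (1.82, 2.35 and 2.37), in the order TBI, 100 and 200 mg/kg. Rgs18, Fermt3 and Rasgrp2 are also platelet genes, and all 7 genes of the platelet list were higher in the same comparisons, whose part in these values was not tested. Of the 19 ligand genes of the receptors, 15 were tested after TBI and 6 were called higher and 2 lower (median 2.09). Cxcl10, a ligand of Cxcr3, was at 0.201, 0.321 and 0.915 CPM in vehicle mice and at 0.789, 1.72 and 2.78 CPM after TBI (2.09 ± 0.42; adjusted p = 0.00153) with overlap, and Ccl6, a ligand of Ccr1, went from a median of 144 to 373 CPM (1.34 ± 0.26). Cxcl12 (4.63 ± 1.67) and Ccl24 (3.10 ± 1.18) were called on few mice, with medians of 1.29 and 0.193 CPM but highest values of 156.9 and 17.3 CPM. Among the irradiated vehicle libraries, those of mice 49 and 51 were high in albumin (3447 and 16050 CPM). Ligand values without these libraries are not given here. Ccl25, the ligand of Ccr9, was called lower at 100 and 200 mg/kg (-1.16 ± 0.16 and -1.06 ± 0.16) without overlap, where 0 higher and 1 lower, and 0 higher and 2 lower, of 13 ligand genes were called. The ligands of Ccr7 and Ccr6, Ccl19, Ccl21a and Ccl20, had no counted read in any of the 10 groups. Only unique hits were counted, so reads that match more than 1 place would be missing from these values.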

How the data were processed

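Whole blood RNA of 60 mice was sequenced after a terminal bleed, 1 library per mouse. The study's methods name stranded total RNA libraries with ribosomal and globin RNA removed, whereas the labels name polyA selection. The authors used Trimmomatic 0.36 for trimming and STAR 2.5.2b with the GRCm38 genome for alignment, and deposited raw counts of unique hits per gene from Subread 1.5.2. The annotation release is not given in the sources used here. The deposited tables of differential expression hold the authors' log2 fold changes, p-values and normalized values, of which none was used, and gave only gene symbols. The 10 count tables list 49315 genes, and the 60 mouse columns that occur again in another table were identical.

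The counts were tested with edgeR 4.0.16 in R 4.3.3 (quasi-likelihood, TMM scaling, at least 10 summed counts, Benjamini-Hochberg over all genes tested), on the mice of the groups compared, with no covariate. Calls needed a log2 fold change beyond 1 in either direction and an adjusted p under 0.05. SE is that of the log2 fold change, derived from the F statistic, and n = 6 mice per group throughout. CPM values were scaled by TMM over all 60 mice. Receptor minus list values, with 0.25 CPM added, were compared by 2-sided exact permutation, with p adjusted over 99 tests. Alternatives were total counts, median-of-ratios scaling, 8 pan-leukocyte genes as library size, 2 other filters, DESeq2 1.42.0, 1 CPM added, and leaving out each mouse or the 11 libraries with over 100 CPM of albumin. Receptor minus list tests were repeated only with total counts, with 1 CPM added and with each mouse left out. The scripts were tested on simulated data. Limits from counts of 0 cover counting error only and use 3 counts per library. Positions and exon lengths come from GENCODE vM21.

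All 9 receptors are named in every comparison. From the lists of other receptors, signalling genes and ligands, up to 4 called genes with the largest change and at least 1 CPM in 1 group were named, and Ackr3 at 50 mg/kg, Ackr2 at 100 mg/kg, Ccl19, Ccl20, Ccl21a and genes in captions were added after their values were seen. Some genes that these rules name are not reported here. The receptors, marker lists and tests were chosen with earlier results of these data known.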

Additional observations from a re-analysis of the deposited data

Results flagged for a closer look

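Among 90 sets of 6 mice (9 genes, 10 groups), 6 had 1 mouse whose gap to the nearest other mouse exceeded 0.625 of the group's range, and chance alone gives about 1 in 20 groups. Ccr1 was highest in mouse 31 at 76.39 CPM in the 50 mg/kg Day 1 group. Ccr6 was lowest in mouse 5 at 17.53 CPM in the 50 mg/kg Day 0 group. Ccr7 was lowest in mouse 17 at 48.69 CPM among vehicle Day 0 mice, in a library with 6450 CPM of albumin. Cxcr3 was highest in mouse 25 at 8.375 CPM among vehicle Day 1 mice. Mouse 60 of the irradiated 200 mg/kg group was highest for Ccr9 at 4.582 CPM and for Cxcr3 at 14.99 CPM.

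The other entries are differences between effects that were tested themselves. The effect of 200 mg/kg differed between irradiated and unirradiated mice by 1.71 for Ccr2, 2.47 for Ccr7, 1.59 for Ccr9 and 1.61 for Cxcr5 (log2, edgeR's quasi-likelihood test). The effect of 100 mg/kg differed between Day 1 and Day 0 by -1.96 for Ccr2, -1.81 for Ccr6, -1.82 for Ccr7, -1.47 for Ccr9 and -1.67 for Cxcr5. For 200 mg/kg these differences were -1.38 for Ccr2, -1.57 for Ccr6, -1.99 for Ccr7, -1.18 for Ccr9 and -1.72 for Cxcr5.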

How the results depend on the processing

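No paired analysis was possible because the mouse numbers differ between groups. The counts of receptors called were within 1.5 times the value given under each alternative, except with total counts, which gave 9 for each of 100 and 200 mg/kg on Day 1, 3 at 50 mg/kg on Day 0, 8 for the drug effect across TBI and 9 for 100 mg/kg between days. Total counts put Cxcr4 at -0.30 after TBI, Ccr3 at -1.39 for 200 mg/kg on Day 1, and Ccr3 at 0.90, -1 and -0.86 in the tests of the drug effect across TBI and of 100 and 200 mg/kg between days. Pan-leukocyte genes as library size turned Ccr3 (-0.19) and Cxcr4 (-0.51) after TBI against Day 1, Ccr3 (-0.28) and Cxcr4 (-0.39) against Day 0, Ccr3 within 200 mg/kg (-0.35) and Ccr3 at 200 mg/kg (-0.04). At 100 mg/kg Ccr3 turned to 0.03 with median-of-ratios scaling, 0.09 with edgeR's own filter, 0.03 with DESeq2 and 0.25 without the libraries high in albumin. Ccr3 was called lower with total counts at 200 mg/kg on Day 1 and for 100 mg/kg between days. With 1 CPM added, Ccr9 minus its list turned to 0.02 and 0.11 after TBI. The cause of each turn was not tested.

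Leaving out 1 mouse gave 6 receptors called after TBI, 3 to 6 for TBI within 200 mg/kg, and on Day 1 without TBI 5 to 6 for 100 mg/kg against 4 to 5 for the higher dose. It turned the sign of Cxcr4 (-0.03 to 0.37) and, against Day 0, of Cxcr3 (-0.28 to 0.14) after TBI, of Ccr3 on Day 1 after 100 mg/kg (-0.13 to 0.12), after 200 mg/kg (-0.08 to 0.21) and across TBI (-0.41 to 0.16), of Cxcr3 at 200 mg/kg between days (-0.64 to 0.05) and of Ccr6 minus its list at 200 mg/kg (-0.04 to 0.09). Within 200 mg/kg, Cxcr4 lost its call with pan-leukocyte genes (0.54) and Cxcr5 with total counts (-0.53). Low read numbers limit Ccr6 after TBI most.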
